A study of Mus musculus with 90 samples.

Results

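The 22 tumours described here came from mice given the control antibody, normal mouse IgG at 10 mg/kg, in study 2 (14 tumours) or study 3 (8 tumours), out of 90 melanoma tumours measured on 3 prime expression arrays. Every tumour was a subcutaneous melanoma allograft, labelled with the genotype Hgftg;Cdk4R24C/R24C and the strain B6.cBrd, so all of them share the Hgf transgene and the Cdk4 allele. The control antibody is named in the design of the series as a mouse IgG1 with the D265A change. None of these 22 animals received the antibody against PD-L1. Control tumours were collected at several times, and the time, the number of doses, the tumour size, and the age and sex of each animal are not given in the sources used here, so a difference between tumours and a difference in their collection cannot be told apart. Each tumour carries its own animal number, so the errors below are spread between animals.

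The groups compared were chosen by measured expression of the same tumours. The score was the mean log2 value of Cd3g and Cd3e, signalling chains of the T cell receptor complex, Cd8a, the co-receptor of cytotoxic T cells, Nkg7, a cytotoxic granule protein, and Gzmb, the protease granzyme B. Within each study the tumours above the median score formed the upper group (7 in study 2, 4 in study 3) and the others the lower group (7 and 4). Study 2 scores ran from 8.08 to 6.06 around a median of 7.01, with 7.06 in the last tumour above it and 6.97 in the first below. Study 3 scores ran from 7.74 to 5.93 around a median of 6.78, with 6.85 just above and 6.72 just below. The step at the median was 0.093 in study 2, where 6 of the 13 steps between neighbouring tumours were larger, and 0.13 in study 3, where 3 of the 7 steps were larger. No step at either median was the largest of its study. The words inflamed and cold stand here for the upper and the lower group only. The largest step in study 3, 0.728, lay inside the upper group, between replicate 3 at 7.58 and replicate 4 at 6.85.

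**Figure D1:**
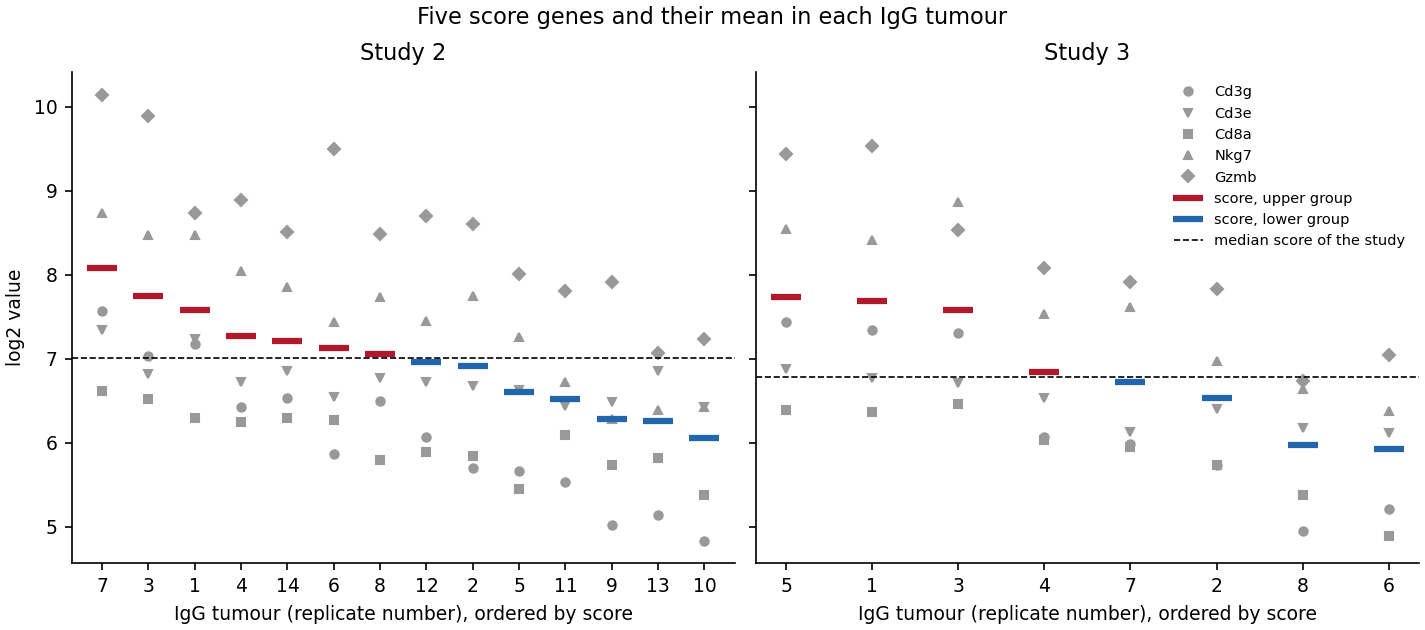
Log2 values of the 5 score genes (grey symbols) and their mean (bars, red above and blue below the dashed median) in the 14 IgG tumours of study 2 and the 8 of study 3, ordered by score. The scores run from 8.08 to 6.06 and from 7.74 to 5.93.

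Among the score genes, whose values chose the groups and carry no test, Cd3g was at 5.87, 6.54 and 7.57 (lowest, median, highest) in the upper group of study 2 and at 4.83, 5.53 and 6.07 in the lower group. In study 3 it was at 7.44, 7.35, 7.31 and 6.07 against 5.98, 5.73, 5.21 and 4.95. Gzmb was at 8.48, 8.89 and 10.15 against 7.06, 7.91 and 8.70 in study 2, and at 9.53, 9.44, 8.53 and 8.08 against 7.92, 7.83, 7.04 and 6.73 in study 3. Ranked without Cd3g, 2 tumours would have changed group, and ranked without any 1 of the other 4 genes, none would. Ptprc, the pan-leukocyte antigen CD45, did not pass the test, at 0.91 ± 0.24 on the log2 scale (limma's standard error, as for all differences below; adjusted p = 0.0806).

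As background, activated T and NK cells make interferon gamma, which acts through its receptor and the JAK kinases. The transcription factor IRF1 and others then switch on guanylate-binding proteins, the chemokines that draw in further T cells, and the machinery that loads and shows peptides on MHC molecules. Tumours rich in such transcripts are commonly called inflamed, and in melanoma they are the ones in which blocking PD-1 or PD-L1 is known to act more often.

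All 18189 genes other than the score genes were compared between the groups in 1 fit, with the difference averaged over both studies and an adjusted p under 0.05 as the threshold. In the upper group 150 genes were higher, 0.825% of those tested, and 7 were lower, 0.0385%. Together these are 157 genes, 0.863%. Of the rises, 146 had the same sign in both studies and 39 were at least 2-fold, while none of the 7 falls reached 2-fold. The median difference over all genes was -0.011. The score came from the same arrays, and T cell and cytotoxic genes are made by the cells that make the score genes, so they are given as a description. When all 90 arrays were fitted together, with the spread of the treated tumours included, no gene passed, and with array weights 855 did. Leaving out 1 tumour moved the total from 157 to 264 without study 2 replicate 2, and to 92, 77, 86, 86 and 73 without study 3 replicates 1, 3, 5, 6 and 8. In whole tumours, fewer cells of a type and less RNA per cell cannot be told apart.

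Skeletal muscle transcripts were high in 4 tumours, all of them in the upper group, and none of the 13 muscle genes passed. The mean of 13 muscle genes was above 9 in 3 of the 7 upper tumours of study 2 (9.5 to 10.87), which are also its 3 highest scores, in 1 of the 4 upper tumours of study 3 (9.18), and in 0 of the 11 lower tumours (5.11 to 7.24). Without these 4 tumours 23 genes were higher and none lower, 22 of them among the 150, and with the muscle mean as a covariate 33 were higher and none lower. Adipocyte transcripts separated the groups of study 3, as described further on, and with the adipocyte mean as a covariate no gene passed. In study 2 the 3 muscle-rich tumours also had the highest adipocyte means, so leaving them out did not separate muscle from fat. Of the 150 rises, 150 had a positive difference without the 4 tumours and with the muscle covariate, and 148 with the adipocyte covariate. The part of these tissues in each result was not tested.

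Interferon gamma target genes were among the rises. Of 16 measured genes of the response, 13 were higher and 0 lower, and all 16 differences were positive in both studies, with a median of 0.81. Ubd encodes FAT10, which tags proteins for the proteasome, and its difference was the largest among the genes that passed. Its levels in study 2 were 7.47, 7.86 and 9.99 (lowest, median, highest) in the upper group and 4.95, 5.86 and 7.99 in the lower group. In study 3 they were 9.82, 9.59, 9.44 and 8.26 against 9.15, 6.75, 5.91 and 5.75. In both studies 1 lower tumour reached into the upper group. The difference was 2.23 ± 0.45, 4.68-fold, with an adjusted p of 0.0167.

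Several guanylate-binding proteins, GTPases that attack intracellular pathogens, rose. Gbp8 was higher by 1.78 ± 0.33 (3.43-fold, adjusted p = 0.012), Gbp2b by 1.61 ± 0.32 (3.05-fold, adjusted p = 0.0164), Gbp2 by 1.22 ± 0.22 (2.33-fold) and Gbp3 by 0.66 ± 0.11 (1.58-fold). Gbp2b ran at 5.43, 6.24 and 8.22 in the upper group of study 2 and at 4.22, 4.84 and 6.18 in the lower group, and at 8.20, 7.51, 7.0 and 6.16 against 6.05, 5.54, 5.09 and 4.87 in study 3. The groups of study 3 were apart for Gbp2b, and in study 2 4 of 7 upper tumours lay above every lower one. These genes are a family of close copies, so probe sets may share signal between them. Without the muscle-rich tumours none of the guanylate-binding protein genes passed.

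Ifng itself was dim. It was at 4.55, 5.17 and 6.35 in the upper group of study 2 and 3.82, 4.26 and 4.94 in the lower group, and at 6.28, 5.88, 5.43 and 4.97 against 5.53, 4.64, 4.06 and 3.91 in study 3. It rose by 1.05 ± 0.23 (2.07-fold, adjusted p = 0.0264), and 1 lower tumour of each study lay above the lowest upper one. Of the 14 genes of the cytokine and its signalling 5 were higher and 0 lower, with a median of 0.46. Besides Ifng they included Irf1, the transcription factor that relays the signal, at 0.76 ± 0.16, Socs1, a feedback inhibitor of the JAK kinases, at 0.57 ± 0.12, and Irf8, a factor of myeloid and dendritic cells, at 1.16 ± 0.22. Without the 4 muscle-rich tumours the median of the 16 response genes was 0.72 with 2 genes past the threshold, and the median of the signalling genes was 0.37 with none. Ubd was then at 1.97 (adjusted p = 0.159) and Ifng at 0.83 (adjusted p = 0.224).

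The promoters of these genes were searched for the letters of the interferon-stimulated response element, GAAANNGAAA on either strand, bound by IRF factors. RefSeq promoters (GRCm38.p6, 300 bases each) were at hand for 14448 of the genes tested. The letters were found in 3.63% of these genes. Of 111 genes called higher with a promoter, 21 (18.92%) held them, and of 10 interferon gamma response genes 8 (80%). The list was written as known targets of this pathway, so its share is no independent observation. Stretches of 60 bases upstream of the annotated start are shown for genes named here, with the matched letters in capitals, since they place the motif before genes that rose together.
Gbp2b (chr3:142594685-142594744, plus strand): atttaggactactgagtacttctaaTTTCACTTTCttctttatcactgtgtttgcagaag
Gbp2 (chr3:142620579-142620638, plus strand): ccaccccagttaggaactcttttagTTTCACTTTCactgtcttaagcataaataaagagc
Gbp3 (chr3:142559977-142560036, plus strand): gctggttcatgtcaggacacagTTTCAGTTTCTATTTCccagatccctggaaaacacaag
Cxcl10 (chr5:92349068-92349127, minus strand): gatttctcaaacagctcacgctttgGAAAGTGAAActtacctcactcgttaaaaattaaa
Socs1 (chr16:10785582-10785641, minus strand): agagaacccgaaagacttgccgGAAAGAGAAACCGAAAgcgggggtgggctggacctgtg
The response element letters start 137 bases upstream of the annotated start in Gbp2b, 59 in Gbp2, 45 in Gbp3, 213 in Cxcl10 and 83 in Socs1. Gbp2b and Gbp2 carry the same 10 letters on the minus strand, and in Gbp3 and Socs1 a pair of matches overlaps. The promoters of Ubd, Cxcl9, Irf1, Psmb8 and Psmb9 do not hold these letters, nor does that of Tap1, which did not pass. The letters TTCNNNGAA, known as GAS, were searched too. They were found in 8.56% of all genes with a promoter. Of the 111 genes called higher 20 (18.02%) held them, Irf1 and Psmb8 among them. A match is a run of letters and does not show binding.

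MHC class II genes, which present peptides to CD4 T cells, moved as a block. Of 9 measured genes 7 were higher and 0 lower, with a median of 1.21. Ciita, the master switch of this gene group, was the 1 gene of all 18189 whose groups were apart upward in both studies (0.0055%), while 0.0825% were apart upward and 0.0385% downward in study 2, and 2.2% and 1.37% in study 3. It was at 6.01, 6.15 and 6.43 in the upper group of study 2 against 5.33, 5.74 and 5.99, and at 6.51, 6.45, 6.36 and 6.15 against 6.06, 5.68, 5.57 and 5.57 in study 3. The difference was 0.55 ± 0.09 (1.47-fold, adjusted p = 0.00363). Only 1 of its 3 probe sets passed, and the probe sets ranged from -0.10 to 0.55. Without the 4 muscle-rich tumours Ciita was at 0.51 and still passed, with an adjusted p of 0.0431.

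The class II chains followed. H2-Ab1, the beta chain of I-A, was at 10.24, 10.80 and 11.75 against 8.38, 10.01 and 10.59 in study 2, and at 11.84, 11.34, 11.26 and 10.61 against 10.24, 10.19, 9.63 and 9.20 in study 3. Study 3 groups did not overlap, and in study 2 4 of 7 upper tumours lay above every lower one. H2-Ab1 rose by 1.33 ± 0.26 (2.51-fold, adjusted p = 0.0164), with all 3 of its probe sets past the threshold. H2-Aa rose by 1.44 ± 0.28, H2-Eb1 by 1.45 ± 0.30, Cd74, the invariant chain that guards the peptide groove, by 1.60 ± 0.30, and H2-DMa, which helps exchange peptides, by 1.21 ± 0.21. For H2-DMa 1 of 2 probe sets passed. Without the muscle-rich tumours the class II median was 0.94 with 1 gene past the threshold.

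Genes of MHC class I presentation differed less. Of 12 genes 4 were higher and 0 lower, with a median of 0.45. They were the immunoproteasome subunits Psmb8 (0.41 ± 0.09), Psmb9 (0.56 ± 0.13) and Psmb10 (0.67 ± 0.14), which cut peptides for class I, and Erap1 (0.50 ± 0.10), which trims them. Without the muscle-rich tumours 0 of the 12 passed (median 0.38). Tap1, the peptide transporter, was at 0.60 ± 0.17 with an adjusted p of 0.111. B2m, the light chain of class I, lay between 13.73 and 13.89 in the upper group of study 2 and between 13.62 and 13.83 in the lower group. In study 3 it was at 14.01, 13.90, 13.85 and 13.70 against 13.76, 13.71, 13.58 and 13.52. Its difference of 0.14 ± 0.05 had an adjusted p of 0.219.

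**Figure D2:**
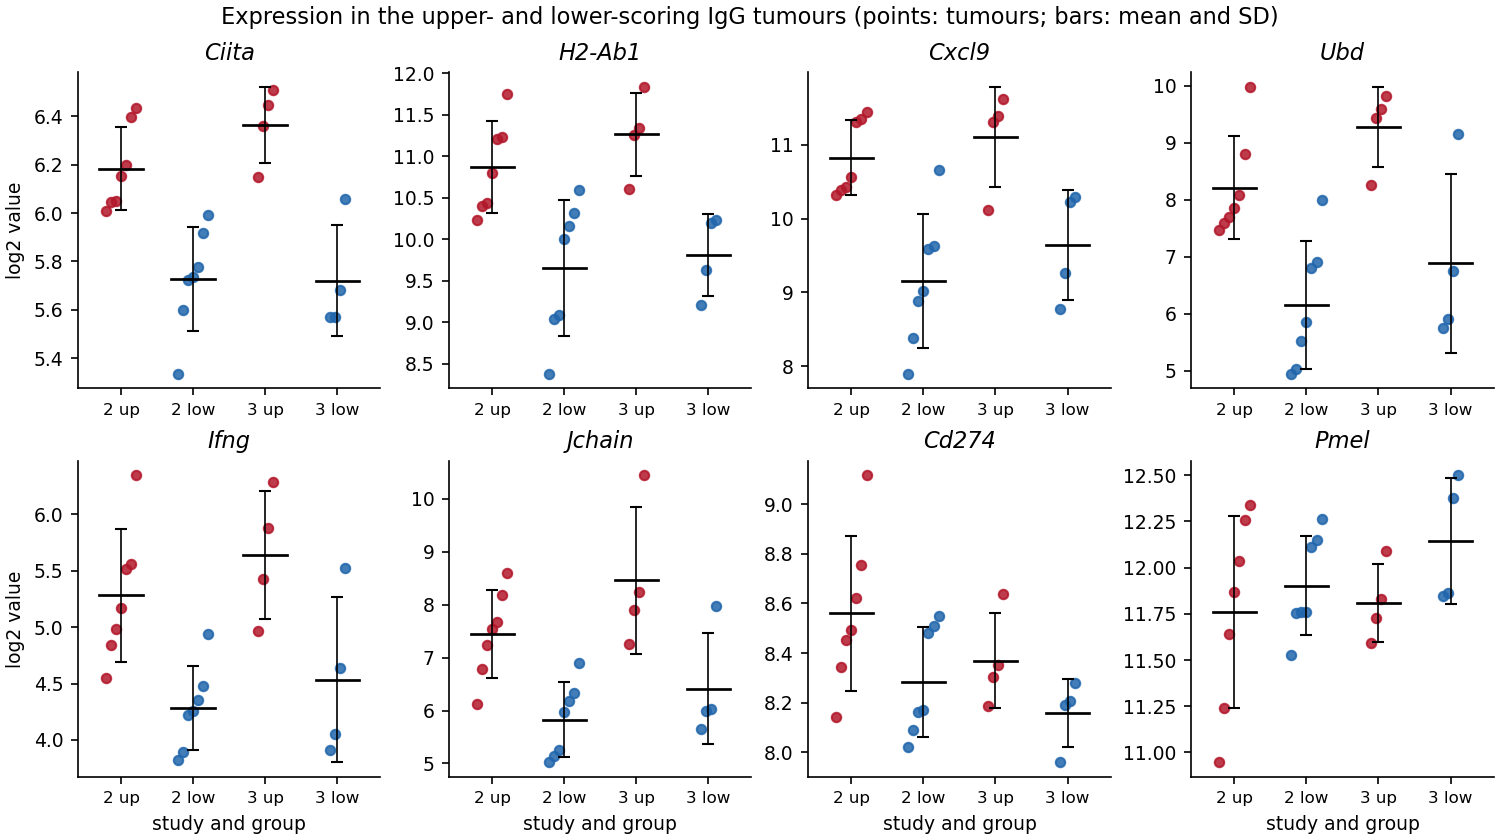
Log2 values of 8 genes in the upper (red) and lower (blue) group of studies 2 and 3, with 1 point per tumour and bars for the mean and SD (n = 7, 7, 4 and 4). The groups are apart for Ciita in both studies, overlap by 1 lower tumour for Ubd, and overlap broadly for Cd274 and Pmel.

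Chemokines of T cell recruitment were among the rises. Cxcl9, an interferon-induced ligand of CXCR3, was at 10.32, 10.56 and 11.45 in the upper group of study 2 against 7.89, 9.02 and 10.66, and at 11.63, 11.39, 11.32 and 10.11 against 10.29, 10.23, 9.26 and 8.77 in study 3. It rose by 1.58 ± 0.30 (2.98-fold, adjusted p = 0.0135). Cxcl10, a second ligand of the same receptor, rose by 0.74 ± 0.11 (1.67-fold, adjusted p = 0.00258). Of the 17 chemokines and receptors 4 were higher and 0 lower, with a median of 0.43, and without the muscle-rich tumours 1 was higher, Cxcl10, with a median of 0.29. Cxcr6, the receptor for CXCL16 on T cells within tissues, was at 6.28, 6.99 and 7.53 against 4.80, 5.67 and 6.25 in study 2, where the groups were apart, and at 7.67, 7.38, 7.27 and 5.98 against 6.43, 5.70, 5.25 and 5.25 in study 3, where 1 upper tumour, replicate 4, fell among the lower ones. Its difference was 1.40 ± 0.24, 2.63-fold.

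T cell and cytotoxic genes outside the score were also among the rises. Of 13 T cell genes 4 passed upward (median 0.41), with Cd8b1, the second chain of CD8, at 0.95 ± 0.15 and Lat, a signalling adaptor of the T cell receptor, at 0.43 ± 0.09. Of 15 cytotoxic and NK genes 5 passed upward (median 0.70), with Klrk1, the receptor NKG2D, at 1.22 ± 0.22, Ccl5, a chemokine of activated T cells, at 1.03 ± 0.20, Cst7, a granule protease inhibitor, at 0.91 ± 0.15, and Gzmk, a further granzyme, at 0.70 ± 0.15. No gene of either list passed downward. Without the 4 muscle-rich tumours 1 of the 13 T cell genes passed, Cd8b1 (0.79, adjusted p = 0.0417), and 0 of the 15 cytotoxic genes (median 0.56), while with the score entered as a number in place of the groups 9 and 13 did.

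Among inhibitory receptors and ligands, 1 of 11 genes passed, Pdcd1, which encodes PD-1, a brake on T cells. Like the T cell genes above, Pdcd1 is given as a description. It was at 5.11, 5.68 and 6.05 in the upper group of study 2 against 4.91, 5.15 and 5.27, and at 6.06, 6.05, 5.72 and 5.32 against 5.41, 4.99, 4.85 and 4.68 in study 3. In study 2 6 of 7 upper tumours lay above every lower one, and in study 3 3 of 4. The difference was 0.69 ± 0.12 (1.61-fold, adjusted p = 0.00647). Without the 4 muscle-rich tumours Pdcd1 was at 0.56 (adjusted p = 0.105) and 0 of the 11 passed, and with the score as a number 8 did. Cd274, which encodes PD-L1, was at 8.14, 8.49 and 9.12 against 8.02, 8.17 and 8.55 in study 2, and at 8.64, 8.35, 8.30 and 8.19 against 8.28, 8.20, 8.19 and 7.96 in study 3. These ranges overlapped, and the difference of 0.24 ± 0.10 had an adjusted p of 0.372. Pdcd1lg2, which encodes PD-L2, was at 0.45 ± 0.12 (adjusted p = 0.0791) and Ctla4, a further T cell brake, at 0.28 ± 0.14 (adjusted p = 0.455). Foxp3, the defining factor of regulatory T cells, was at -0.06 ± 0.07 (adjusted p = 0.837). Tnfrsf18, the receptor GITR of regulatory and activated T cells, rose by 0.59 ± 0.12 and was the 1 of 8 regulatory T cell genes to pass.

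Antibody transcripts rose while B cell markers did not pass. Jchain, the joining chain of secreted antibodies, was at 6.13, 7.54 and 8.61 in the upper group of study 2 against 5.02, 5.97 and 6.91, and at 10.45, 8.23, 7.90 and 7.26 against 7.97, 6.03, 5.99 and 5.66 in study 3. The highest value belonged to replicate 3 of study 3, which is also its muscle-rich tumour. Jchain rose by 1.84 ± 0.39 (3.57-fold, adjusted p = 0.023), and Ighm, the heavy chain of IgM, by 1.63 ± 0.34. For Ighm 2 of 11 probe sets passed, and they ranged from -0.13 to 1.74. These were the 2 of 8 plasma cell genes to pass. Without the muscle-rich tumours neither passed (Jchain at 1.35 with an adjusted p of 0.183, Ighm at 1.28 with 0.152; list median 0.06), and none of the 8 did with the muscle, fibroblast or adipocyte covariate. Of 11 B cell genes none passed, with a median of 0.08. Ms4a1, which encodes CD20, was at 0.36 ± 0.26 (adjusted p = 0.68) and Bank1, a B cell adaptor, at 0.62 ± 0.21 (adjusted p = 0.221).

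Macrophage genes had a median difference of 0.64 without a single gene past the threshold among 16. With the score as a number 10 passed upward (median 0.6). With a control probe measure of RNA quality as a covariate 3 did (median 0.66). The list median was 0.33 without the muscle-rich tumours, 0.38 with the muscle covariate and 0.37 with the fibroblast covariate. With the adipocyte covariate it was -0.24, and no macrophage gene passed in any of these settings with muscle, fibroblast or adipocyte transcripts taken into account. Csf1r, the growth factor receptor of macrophages, was at 8.95, 10.36 and 12.51 in the upper group of study 2 against 8.92, 9.20 and 9.86, and at 10.83, 10.68, 10.65 and 10.63 against 10.72, 10.54, 9.70 and 9.20 in study 3. The upper group of study 2 spread widely, and the difference of 0.90 ± 0.32 had an adjusted p of 0.243. Mpeg1, a pore-forming protein of macrophages, was nearest to the threshold at 0.82 ± 0.20 (adjusted p = 0.0627). Of 12 dendritic cell genes 1 passed, Irf8, and Flt3, the growth factor receptor of dendritic cells, was at 0.06 ± 0.06 (adjusted p = 0.805). Slamf8, a surface receptor of activated myeloid cells, rose by 1.67 ± 0.29 (3.17-fold, adjusted p = 0.00789), and Acod1, the itaconate-making enzyme of activated macrophages, by 0.95 ± 0.22. Among 10 mast cell and eosinophil genes 3 passed upward, all of them mast cell genes: the proteases Cma1 (0.79 ± 0.19) and Mcpt4 (0.45 ± 0.11) and the IgE receptor chain Fcer1a (0.38 ± 0.09). Fcer1a was dim, at 3.08 to 3.31 in the upper group of study 2 against 3.10 to 3.38 in the lower group, and its difference there was 0.01 against 0.74 in study 3. For Mcpt4 the differences were 0.14 and 0.76, and for Cma1 0.66 and 0.92. None of the 10 genes passed with the muscle, fibroblast or adipocyte covariate. Without the muscle-rich tumours 2 passed, and with the score as a number 4 did.

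Type I interferon genes, which answer interferons alpha and beta, had a median difference of 0.32, and 0 of 17 passed between the groups, while 12 were higher with the score as a number. Ifit2 and Ifit3, inhibitors of viral translation, were at 0.44 ± 0.12 (adjusted p = 0.101) and 0.55 ± 0.17 (adjusted p = 0.143). All 17 differences between the groups were positive, 15 of them in both studies. The list median was 0.2 without the muscle-rich tumours, 0.21 with the muscle covariate and 0.22 with the fibroblast covariate. With the adipocyte covariate it was 0.02, and 0 of the 17 passed in each of these settings. With the control probe covariate the median was 0.34 and 1 gene was higher.

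**Figure D3:**
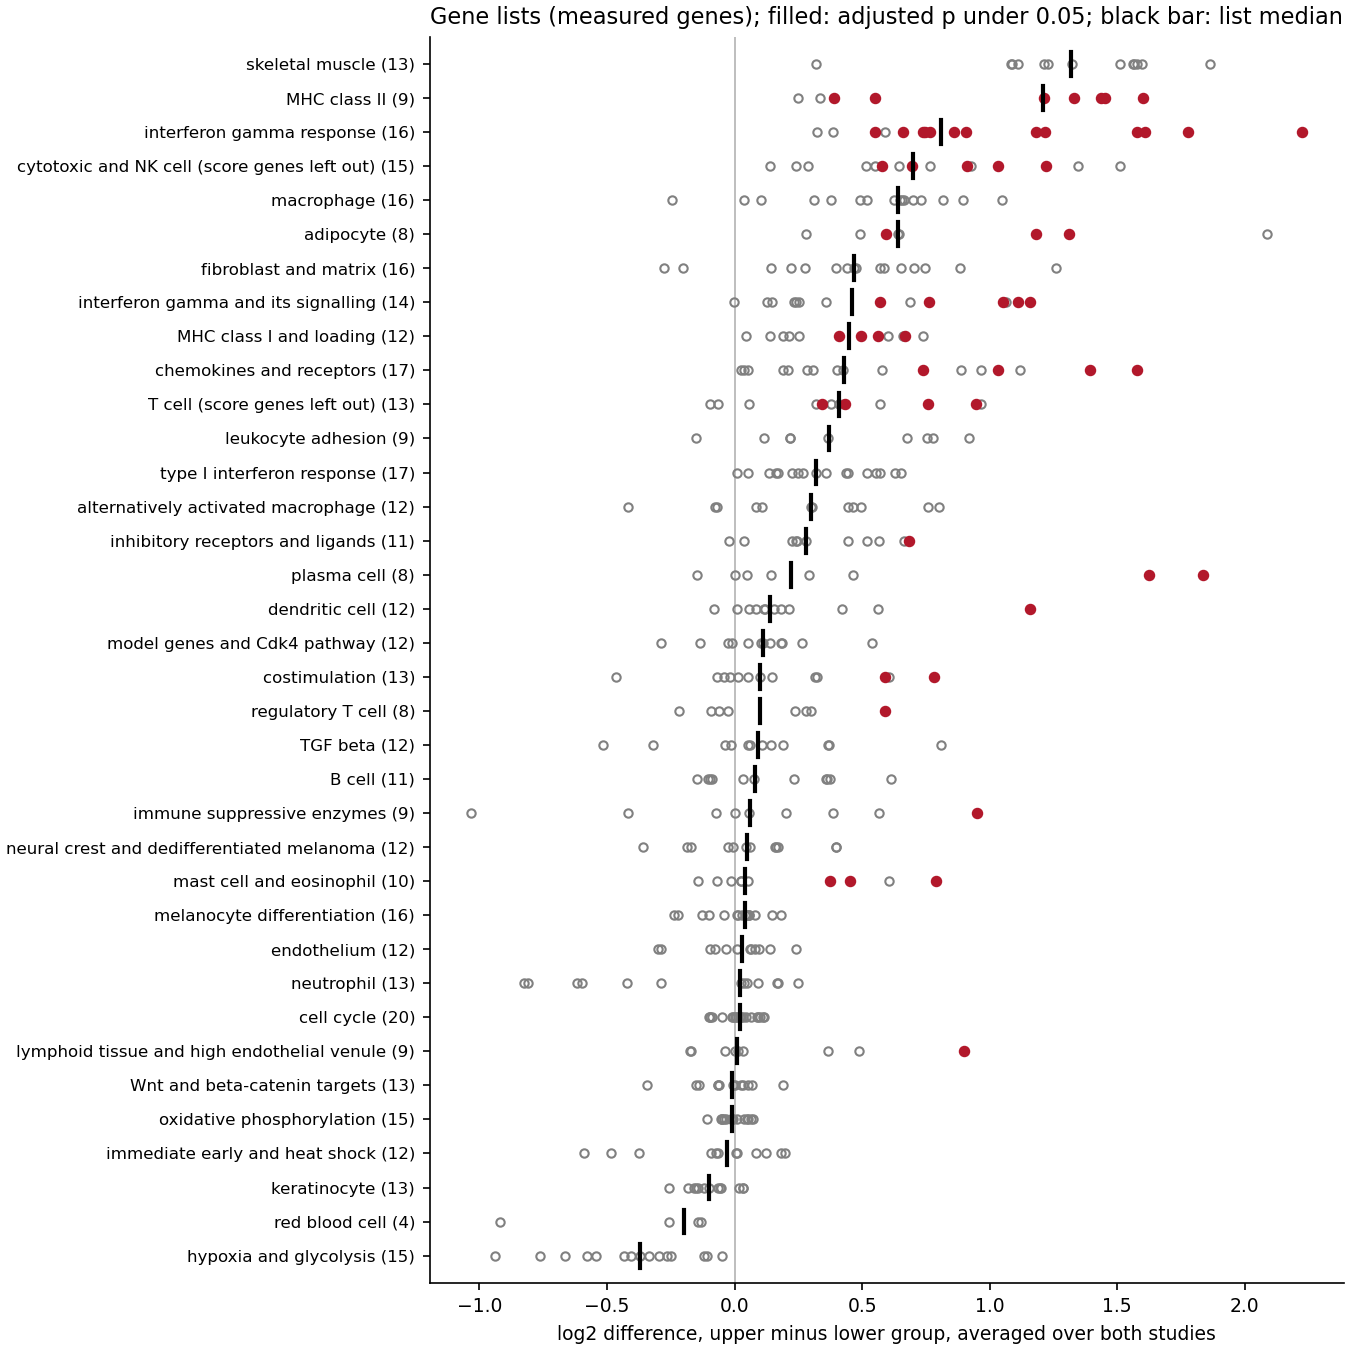
Log2 differences, upper minus lower group and averaged over both studies, of the measured genes of 36 lists (points, filled red where the adjusted p was under 0.05), with the median of each list as a black bar. Filled points gather in the MHC class II and interferon gamma lists, the muscle list has the highest median, 1.32, with none filled, and the hypoxia list lies wholly below 0.

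Genes of the tumour cells themselves differed little. Of 16 melanocyte differentiation genes none passed, with a median of 0.04. Pmel, a pigment granule protein, was at 10.95, 11.87 and 12.34 in the upper group of study 2 and at 11.53, 11.76 and 12.26 in the lower group, and at 12.09, 11.83, 11.73 and 11.59 against 12.50, 12.37, 11.86 and 11.84 in study 3. Its difference of -0.24 ± 0.16 had an adjusted p of 0.635, and that of Mlana, a melanocyte antigen, was 0.18 ± 0.23 (adjusted p = 0.876). The medians of 20 cell cycle genes and 13 Wnt and beta-catenin targets were 0.02 and -0.01, with none past the threshold. Axin2, a feedback target of beta-catenin, was at 0.07 ± 0.08 and Mki67, a proliferation marker, at -0.10 ± 0.21. Hgf, the transgene of the model, was at -0.29 ± 0.16 (adjusted p = 0.557) and Cdk4, the mutated kinase, at -0.03 ± 0.07 (adjusted p = 0.958). The arrays measure these 2 genes whatever allele they come from.

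Hypoxia and glycolysis genes had lower values in the upper group without passing the test. None of the 15 passed, with a median of -0.37 against -0.011 over all genes, and all 15 were negative in both studies. Ankrd37, a target of the hypoxia factor HIF-1, was at 6.72, 7.92 and 8.74 in the upper group of study 2 against 7.37, 8.59 and 9.18, and at 8.32, 7.82, 7.60 and 7.30 against 9.65, 8.54, 8.46 and 7.75 in study 3. The ranges overlapped, and the difference of -0.76 ± 0.26 had an adjusted p of 0.224. Adm, the vasodilator adrenomedullin, was at -0.94 ± 0.32 (adjusted p = 0.232), and Slc2a1, the glucose transporter GLUT1, at -0.44 ± 0.20 (adjusted p = 0.433). Without the muscle-rich tumours the median of the list was -0.28, and with the adipocyte covariate -0.08. Ptgs2, the prostaglandin enzyme COX-2, was at 4.72, 5.77 and 6.28 against 5.13, 7.39 and 9.32 in study 2, and at 5.46, 5.43, 4.91 and 4.86 against 7.03, 5.49, 5.24 and 4.99 in study 3, a difference of -1.03 ± 0.47 (adjusted p = 0.424). Serpinb2, an inhibitor of plasminogen activators named here after its values were seen, was at 4.67, 6.14 and 7.38 against 4.35, 9.51 and 11.02 in study 2, and at 5.78, 5.35, 4.37 and 3.68 against 9.99, 6.93, 5.88 and 4.69 in study 3. Its difference of -2.13 ± 0.75 had an adjusted p of 0.241, and the spread lay in the lower groups.

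The 7 genes that fell did so by small amounts. Pde11a, a phosphodiesterase, was at 5.05, 5.31 and 5.63 in the upper group of study 2 against 5.52, 5.66 and 5.9, and at 6.07, 5.70, 5.65 and 5.6 against 6.59, 6.32, 6.20 and 6.16 in study 3. The groups of study 3 were apart, and the difference was -0.45 ± 0.08 (adjusted p = 0.00981). The others were Grik5, a kainate receptor subunit, at -0.32 ± 0.07, A230051N06Rik at -0.30 ± 0.06, Map6d1 at -0.28 ± 0.06, Eras, an embryonic Ras protein, at -0.27 ± 0.06, Ptprk, a receptor phosphatase, at -0.24 ± 0.06, and Gsdmc2, a gasdermin, at -0.18 ± 0.04. Eras and Gsdmc2 lay below 3.4 on all 90 arrays, near the bottom of the scale. None of the 7 passed without the 4 muscle-rich tumours.

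Each study was also read on its own. Within study 2 none of the genes passed in limma's test (1862 at an unadjusted p under 0.05), while 39, 17 and 60 did without replicates 2, 6 and 12, 693 with array weights and 966 with the score as a number. Within study 3 32 genes passed upward (0.176%) and 0 downward. Study 3 fitted alone gave fewer, as stated in the last section. The difference between the studies itself passed for 13 genes (0.0715%), all larger in study 3. Without replicate 6 or 8 of study 3 its own count was 20, and without replicate 8 the difference between studies passed for 8. The 13 were Adig, Aldh1a7, Amy1, Cdo1, Cidec, Inmt, Nnat, Orm1, Plin4, Retn, Sncg, Tmem45b and Wfdc21. Several are known from fat: Retn encodes the adipokine resistin, Cidec and Plin4 coat lipid droplets, and Adig acts in fat cell formation. Retn was at 6.24, 6.68 and 7.31 in the upper group of study 2 against 6.45, 6.69 and 6.95, and at 9.94, 9.18, 9.17 and 8.92 against 7.16, 7.13, 7.02 and 6.57 in study 3. Its difference was 0.03 in study 2 and 2.33 in study 3 (adjusted p of the difference between studies = 0.000892).

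Cyp2e1, an ethanol-oxidising enzyme, had the second largest rise among the genes that passed over both studies, and its difference was 0.49 in study 2 and 3.6 in study 3. It was at 10.02, 8.54, 8.13 and 7.91 against 5.89, 4.88, 4.76 and 4.68 in study 3, with the groups apart, and at 4.43, 5.02 and 6.89 against 4.51, 4.73 and 5.81 in study 2. Adipoq, the fat cell hormone adiponectin, did not pass over both studies (2.09 ± 0.51, adjusted p = 0.0541). In study 3 it was at 11.46, 10.71, 10.66 and 10.61 against 7.65, 7.65, 6.91 and 6.39. Of 8 adipocyte genes 3 passed upward, with a median of 0.22 in study 2 and 1.03 in study 3. The mean of the list was 8.18 to 8.99 in the 4 upper tumours of study 3 and 6.75 to 6.99 in the 4 lower ones, so in that study the groups and the amount of fat transcripts cannot be told apart. Replicate 4 of study 3 had the highest adipocyte mean, 8.99, and the lowest score of that upper group. In study 2 the adipocyte means ran from 6.23 to 7.89 in the upper group and from 6.24 to 6.94 in the lower group. The 3 muscle-rich tumours of study 2, replicates 7, 1 and 3, had 7.89, 7.20 and 7.15, above every lower tumour. Car3, an enzyme of fat and muscle named after its values were seen, was at 12.55, 12.14, 12.11 and 11.94 against 9.38, 8.78, 8.34 and 8.15 in study 3. In study 2 its groups overlapped, at 4.2 to 12.6 in the upper group against 3.8 to 8.8 in the lower group. Over both studies Car3 passed in none of the fits that left out 1 tumour (limma, adjusted p from 0.0694 to 0.392).

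**Figure D4:**
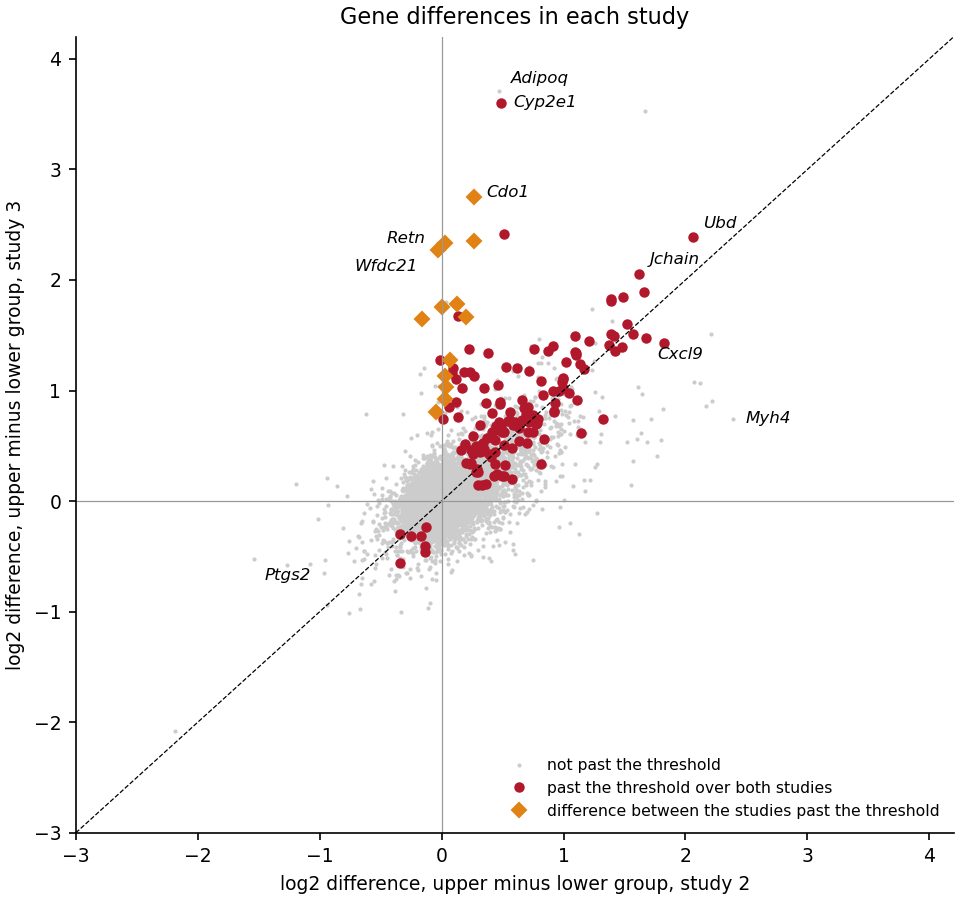
Log2 difference of each of 18189 genes between the groups, study 2 on the horizontal and study 3 on the vertical axis, with the line of equal difference dashed. Ubd, Jchain and Cxcl9 lie near the line, while Cdo1, Retn and Wfdc21 (orange, difference between studies past the threshold) and Cyp2e1 lie near 0 in study 2 and above 2 in study 3.

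Muscle genes had the highest list median, 1.32 (1.81 in study 2, 0.83 in study 3), and none of the 13 passed. Myh4, a fast myosin heavy chain, was at 3.5, 6.59 and 10.88 in the upper group of study 2 against 3.43, 3.6 and 7.08, and at 7.37, 3.71, 3.56 and 3.35 against 3.94, 3.85, 3.68 and 3.54 in study 3. A few tumours thus carried the difference. Fibroblast and matrix genes had a median of 0.47 with 0 of 16 past the threshold. That median was 0.22 without the muscle-rich tumours, 0.16 with the muscle covariate and -0.65 with the adipocyte covariate. Lum, the matrix proteoglycan lumican, was at 1.26 ± 0.41 (adjusted p = 0.197) and Col1a1, a collagen chain, at 0.48 ± 0.48 (adjusted p = 0.817). With the fibroblast mean as a covariate 64 genes were higher and 2 lower.

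**Figure D5:**
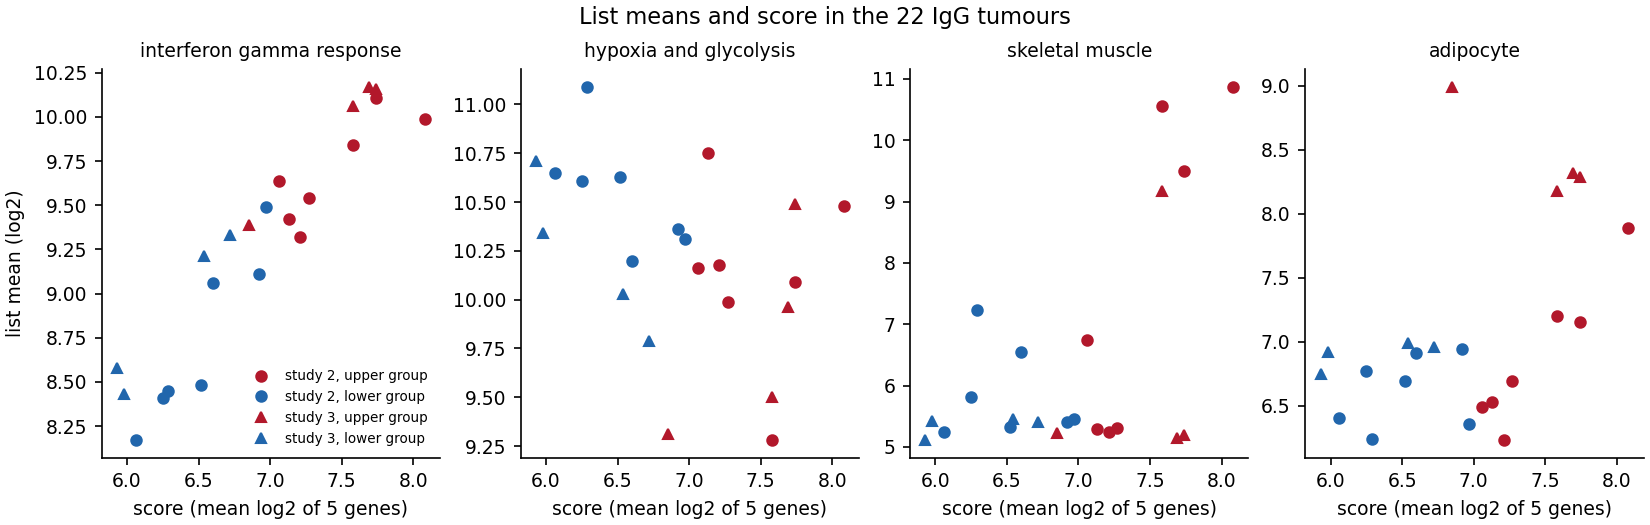
Mean log2 value of 4 gene lists (vertical axes, each with its own range) against the score in the 22 IgG tumours, with circles for study 2, triangles for study 3, red for the upper and blue for the lower group. The 4 red points above 9 in the muscle panel and the 4 red triangles above 8 in the adipocyte panel are the tumours named in the text.

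The direction found in study 2 was set beside study 3, each study fitted alone. Of 308 genes higher in study 2 at an unadjusted p under 0.01, 280 (90.9%) were higher in study 3, where 49.4% of all genes were higher, and 153 (49.7%) had an unadjusted p under 0.05 in that direction, where 3.89% of all genes did. Of 99 genes lower in study 2, 70 (70.7%) were lower in study 3, against 50.6% of all genes, and 6 (6.06%) had an unadjusted p under 0.05, against 1.75%. Both groups were cut by the same 5 genes in each study, so these shares describe genes that vary with the score.

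The other 68 tumours of the series, not used to form the groups, were fitted with the score as a number within each outcome group and study. There 3224 genes (17.7%) were higher and 4519 (24.8%) lower with a higher score, 42.6% in all. Without 6 of these tumours whose melanocyte mean was below 9, 1381 (7.59%) were higher and 918 (5.05%) lower. Of the 150 genes that were higher in the upper IgG group, 136 (90.7%) were also higher with the score there, and none was lower. Without the 6 tumours this was 107 (71.3%), again with none lower. Of the 7 falls 3 were also lower, and 0 without the 6 tumours. The score there was the mean of the same 5 genes, so these shares describe genes that vary with the score. All 16 interferon gamma response genes and all 9 class II genes were higher with the score, Ciita by 0.47 for each unit of score and Cxcl9 by 0.74. Of 17 type I interferon genes 5 were higher and 1 lower. None of 15 hypoxia genes was higher and 1 was lower, with Ankrd37 at -0.17 for each unit (adjusted p = 0.0536). None of 16 melanocyte genes was higher and 9 were lower, and of 20 cell cycle genes 10 were lower. None of 13 muscle genes passed in either direction, while 6 of 8 adipocyte genes were higher. Without the 6 tumours all 16 response genes and all 9 class II genes were still higher, type I interferon genes were 9 higher and 0 lower, 2 melanocyte, 2 cell cycle and 0 hypoxia genes were lower, and 2 adipocyte genes were higher. Of 10 mast cell and eosinophil genes 5 were higher with the score, and 0 without the 6 tumours. Among the 7 PBS tumours alone no gene passed.

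On the scale of the whole series the upper group scored below most tumours labelled as responders. None of the 7 upper tumours of study 2 and none of the 4 of study 3 had a score above the median of the responders of its study, 8.20 and 8.87. Of the 17 and 10 responders, 9 and 9 lay above the highest IgG tumour. Non-responder medians were 7.18 and 7.24, and those of the vehicle control PBS were 7.02 (3 tumours) and 6.15 (4 tumours). Non-responders reached 10.53 in study 2, above its highest responder at 9.75, and 7.71 in study 3. Of 14 and 9 non-responders, 7 and 7 lay above the highest lower IgG tumour of their study. Scores of study 2 overlapped more widely, since all 7 upper tumours there lay above the lowest responder, against 2 of 4 in study 3.

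As a sign of RNA quality, the gap between 3 prime and 5 prime control probes for Actb and Gapdh was lower in the upper group by 0.101 (2-sided exact permutation test within study, p = 0.125). The array median was lower by 0.015 (exact permutation p = 0.0491, adjusted p = 0.0982 over the 2 measures). With the control probe difference as a covariate 437 genes were higher and 74 lower. The largest control probe gaps were in lower tumours, 0.48 in replicate 2 of study 2 and 0.41 in replicate 7 of study 3. These tumours scored 6.92 and 6.72, close to the medians of their studies, 7.01 and 6.78. Among the lower tumours of their studies they also had the highest Ubd (7.99 and 9.15) and Ifng (4.94 and 5.53). A link between the gap and these values was not tested.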

How the data were processed

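The authors deposited 1 table of log2 values for 45101 probe sets in 90 tumours, and the submitters' processing notes name RMA and limma without versions. They span 2.19 to 14.84, and the medians of the arrays span 5.71 to 5.9. Probe sets naming 1 gene were kept (34958), and each of 18194 genes was read from its brightest probe set on average. Gene names come from the platform annotation and can be old. Precision is limited by how many arrays each group has.

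The 22 IgG tumours entered 1 fit (limma 3.58.1, R 4.3.3) of a mean for each study and group, both studies weighted equally. Tests were 2-sided, with Benjamini-Hochberg adjustment over the 18189 genes left after removing the 5 score genes. The fit was tested on simulated data. Replicate numbers follow the order of deposit and only name tumours. The text names up to 15 rises and 15 falls that passed, taken by size among genes with 1 sign in both studies, up to 4 genes of each list by p, a fixed set, and 2 genes said to be chosen later, some left out for length. The tumours, the 36 gene lists (447 of 482 entries measured) and this rule were chosen with earlier results of these data known. Promoters were matched by symbol. Leaving out muscle-rich tumours and the adipocyte covariate were added after seeing the data. Figures used matplotlib 3.10.9.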

Additional observations from a re-analysis of the deposited data

Results flagged for a closer look

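Within each group, 37 measures (the score and 36 list means) were checked for a tumour far from its group, 148 checks in all, and 13 stood out. Chance alone gives about 1 in 20. In the upper group of study 2, replicate 7, which has the highest score, stood apart in 5 lists: alternatively activated macrophage (8.35, others 6.76 to 7.36), TGF beta (8.86, others 7.71 to 8.07), endothelium (8.65, others 6.51 to 6.95), neural crest and dedifferentiated melanoma (7.76, others 7.0 to 7.33) and oxidative phosphorylation (11.92, others 12.06 to 12.15). This tumour also had the highest skeletal muscle mean, 10.87.

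In the lower group of study 2, replicate 9 stood apart in endothelium (7.45, others 6.58 to 6.95) and in neural crest genes (7.59, others 6.92 to 7.15), and replicate 12 in neutrophil genes (5.05, others 6.10 to 6.77). In the upper group of study 3, replicate 4 was low for interferon gamma response (9.39, others 10.06 to 10.17) and for MHC class I and loading (11.33, others 11.72 to 11.76), and replicate 3 was high for plasma cell (8.27, others 7.44 to 7.5) and skeletal muscle genes (9.18, others 5.15 to 5.23). In the lower group of study 3, replicate 6 was low for skeletal muscle genes (5.11, others 5.41 to 5.46).

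The difference between groups itself differed between the studies in 13 genes, each larger in study 3 (study 3 minus study 2, log2, with limma's adjusted p). The gaps were 2.30 for Retn (0.000892), 2.30 for Wfdc21 (0.00242), a secreted protein of the whey acidic protein family, 2.49 for Cdo1 (0.00428), the cysteine dioxygenase, 2.09 for Cidec (0.00471), 1.81 for Adig (0.00242), 1.75 for Orm1 (0.0133), an acute phase protein, and 1.66 for Plin4 (0.00557). They were 1.47 for Amy1 (0.0273), an amylase, 1.21 for Aldh1a7 (0.00471), an aldehyde dehydrogenase, 1.10 for Nnat (0.0273), 1.0 for Sncg (0.0159), 0.90 for Tmem45b (0.0161) and 0.86 for Inmt (0.00465), a methyltransferase.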

How the results depend on the processing

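With array weights 855 genes passed over both studies, 693 in study 2, 90 in study 3 and 20 for the difference between studies. With the score as a number they were 822, 966, 114 and 0. With the control probe covariate 511, 365 and 60 passed over both studies, in study 2 and in study 3. With dim genes left out 57 passed over both studies, 2 in study 3 and 1 for the difference, and with all 90 arrays fitted 0, 0 and 0. At a threshold of 0.01 these were 33, 18 and 8. Divided at the median of all 22 tumours, 86 passed in study 2, 1 in study 3 and 0 for the difference. Without the 2 tumours nearest each median 22 passed in study 2 and 7 for the difference. The mean of all probe sets gave 2 in study 2, and study 3 fitted alone gave 15. Over both studies the muscle covariate left 33, the fibroblast covariate 66 and the adipocyte covariate 0 (1 in study 3), and leaving out the 4 muscle-rich tumours 23 (21 for the difference). Leaving out 1 tumour at a time gave 73 to 264 genes over both studies, 0 to 60 in study 2, 20 to 31 in study 3 and 8 to 16 for the difference. The count over both studies was 264 without study 2 replicate 2, and 92, 77, 86, 86 and 73 without study 3 replicates 1, 3, 5, 6 and 8. In study 2 it was 39, 17 and 60 without replicates 2, 6 and 12, and in study 3 it was 20 without replicate 6 or 8. The 7743 genes related to the score in the other 68 tumours became 2299 without 6 tumours of a melanocyte mean below 9 and 0 among the 7 PBS tumours alone. Hp, haptoglobin, was higher in the upper group by 0.51 in study 2 and by 2.42 in study 3. Over both studies it passed in 11 of the 22 fits that left out 1 tumour. With the adipocyte covariate Hp was at -0.10 (adjusted p = 1). The cause of these changes was not tested. No paired analysis was possible because replicate numbers follow the order of deposit and every tumour came from its own animal.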
